A study of Mus musculus with 6 samples.

Results

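The nuclear genes of oxidative phosphorylation were examined in mouse HoxB8 neutrophil progenitors, an immortalised line held immature by the transcription factor Hoxb8. The genes were taken by symbol alone: those beginning with Nduf followed by a, b, c, s or v, the Sdh genes a to d, those beginning with Uqcr, Cyc1, the Cox genes of subunits 4 to 8 with a plain letter or number ending, and those beginning with Atp5. This gave 91 genes, each with 1 probe set, among 22206 probe sets on the array, 19572 of which carry a single gene symbol. One group expressed the K313 form of C/EBPα, an alteration linked to acute myeloid leukaemia, and the other expressed wild-type C/EBPα (WT). Each group had 3 Affymetrix Mouse Clariom S arrays of total RNA. Both groups shared the HoxB8 progenitor background and 1 day in differentiation medium that contained serum and stem cell factor. The labels do not say how either form was introduced, whether a group is 1 clone, or whether its replicates were cultured separately. Every p-value here is therefore set against the spread among the 6 samples, and that spread may be technical.

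Oxidative phosphorylation makes most of the ATP of respiring cells. Complexes I to IV of the inner mitochondrial membrane pass electrons from NADH and succinate to oxygen and most of them pump protons, and complex V, the ATP synthase, uses the returning protons to make ATP. Nearly all of the subunits are encoded in the nucleus and imported, while a small set is encoded by mitochondrial DNA. Mature neutrophils are known for relying on glycolysis and having few mitochondria, whereas their progenitors respire. The symbol rule reaches subunits of every complex, but it also takes in 8 assembly factors of complex I (Ndufaf genes), which build the complex and leave it, and 7 tissue isoforms known mainly from muscle, heart, testis or hypoxic cells. It does not reach Cox4i1, Cox4i2, Cox7a2l or the cytochrome c genes, which are given with the related genes at the end. The transcripts encoded by mitochondrial DNA were not analysed here.

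All values are log2 expression values, and a difference is K313 minus WT on that scale. A gene was called where limma's p-value, adjusted by the Benjamini-Hochberg method over all 22206 probe sets, was under 0.05. The 6 arrays had medians of 5.01 to 5.13, and arrays correlated at 0.995 to 0.996 within K313, 0.994 to 0.995 within WT and 0.983 to 0.989 between the groups (Pearson's r across probe sets, which are not independent). A mean of 5 or below was treated as near background. All 7 listed progenitor markers lay above that level in both groups, and Mpo averaged 18.42 in K313 and 18.41 in WT. Of these 7 markers 4 were higher in K313, Elane by 3.29, Ctsg by 1.75, Prtn3 by 0.94 and Ms4a3 by 0.81. Cd34 was lower, at -0.93, while Kit, at -0.62, and Mpo were not called. The mean level of the 7 markers was 15.72 to 15.86 over the K313 arrays and 14.96 to 15.11 over the WT arrays. Of 5 basophil and mast cell markers 3 were lower in K313, with a mean level of 10.76 to 10.97 in K313 and 12.18 to 12.49 in WT. Of 5 monocyte markers 1 was higher and 1 lower (6.25 to 6.57 in K313, 5.63 to 6.09 in WT). The higher one was Cd14, at 9.56 in K313 and 5.11 in WT, and the lower one Adgre1, at 8.34 and 9.12. Csf1r (-0.41), Mrc1 (-0.27) and Ly86 (0.01) were not called. Of 4 later neutrophil markers 1 was lower (mean level of the list 4.72 to 5.35 in K313, 5.12 to 5.26 in WT). The lower one was Cxcr2, at 8.36 in K313 and 10.43 in WT. Ngp pointed the other way, at 1.39, and was not called (limma adjusted p = 0.0752). Ltf (0.01) and Camp (3.38 in both groups) were near background in both groups and not called. The 2 measured B cell markers, the 1 measured erythroid marker and 2 of the 3 T cell markers were near background in both groups, and none of these 3 lists had a called gene. The part that these cell type markers play in the results below was not tested, and in RNA from a whole culture fewer cells of a type and less RNA per cell cannot be told apart.

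K313 replicate 1 stood apart within its group for these genes. It was alone the lowest of the K313 arrays in 66 of the 91 genes, against 11 for replicate 2 and 13 for replicate 3 (1 tie). The WT arrays differed too: WT replicate 3 was alone the lowest of its group in 51 genes and WT replicate 1 alone the highest in 46. The median over the 91 genes of each array's value minus the WT mean was -0.12, 0.17 and 0.16 in K313 replicates 1, 2 and 3, against 0.08, -0.01 and -0.07 in the WT replicates. The same median over all probe sets stayed between -0.02 and 0.02 on every array. Medians by complex, and those of the 36 genes plotted with their intervals, that move by 1.5 times or more without K313 replicate 1 are also given below without it.

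**Figure D1:**
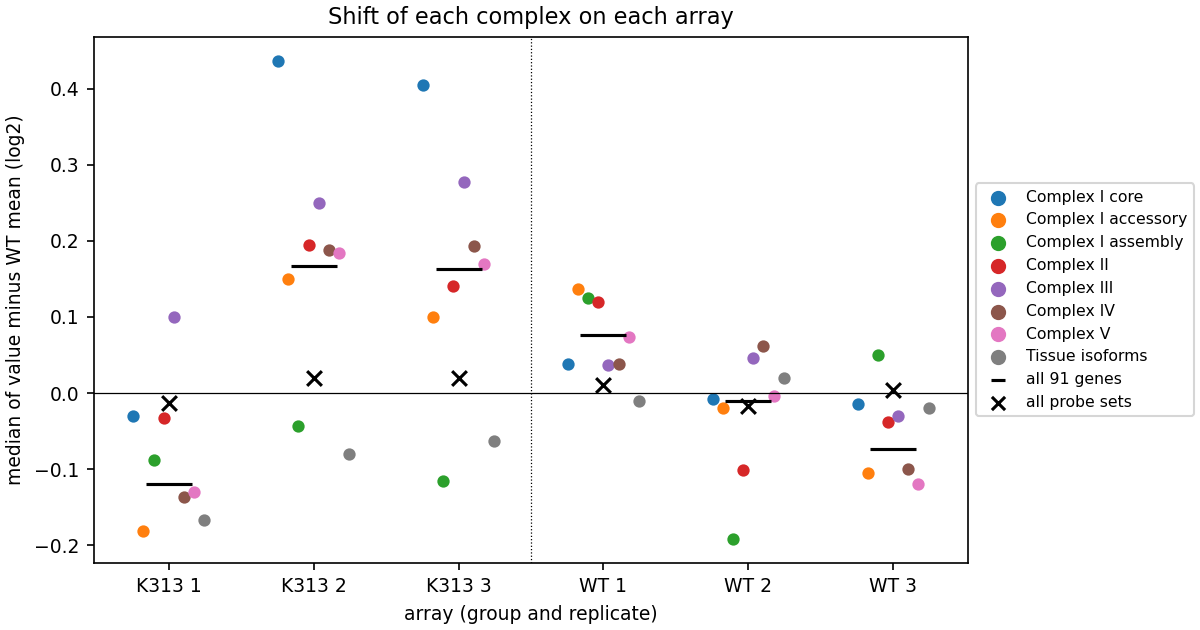
Median shift of each complex on each array. The vertical axis gives the median over genes of the array's log2 value minus that gene's WT mean, the horizontal axis the 6 arrays; dots are complexes, black bars all 91 genes and crosses all probe sets. K313 replicate 1 lies at -0.12 for all 91 genes, below K313 replicates 2 and 3 at 0.17 and 0.16.

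The respiratory chain and ATP synthase transcripts of K313 cells differed little from those of WT cells. Of the 91 genes, 1 was higher in K313 (Cox6b2) and 1 was lower (Cox7b2), 2.20% in all, where 7.75% of all probe sets were called (3.77% higher and 3.97% lower). Both are testis isoforms of complex IV at levels near background in at least 1 group. None of the other 89 genes, which include the 76 general subunits and the 8 assembly factors, passed the test. At an unadjusted p under 0.05 there were 8 higher and 3 lower genes (12.1%, against 17.8% of all probe sets, 8.79% higher and 9.04% lower). The groups did not overlap in 18 genes, 11 with all K313 arrays above and 7 with all below, which is 19.8% against 21.9% of all probe sets. The median difference was 0.06, with 52 genes above 0 and 39 below, against a median of 0.02 over all probe sets. When every array was shifted to a common median, the median of the 91 genes was -0.02, with 42 above 0 and 49 below, so the sign of this median depends on the scaling. Without K313 replicate 1 the median was 0.145, with 63 above 0 and 27 below, and without K313 replicate 3 it was -0.0033. Without WT replicate 1 it was 0.105, with 63 above 0 and 28 below.

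The intervals show the size of difference that these arrays could have missed. In 89 of the 91 genes (97.8%) the 95% interval of the difference, before adjustment, lay wholly within 2-fold in either direction, as in 88.3% of all probe sets. In 54 genes (59.3%) it lay within 1.5-fold, against 49.7% of all probe sets. The 2 genes beyond the 2-fold limit were Cox6b2 and Ndufa2, a small accessory subunit of complex I whose difference was 0.58 with an interval of -0.04 to 1.19. Ndufa2 read 10.63, 10.95 and 11.92 in K313 and 10.50, 10.74 and 10.53 in WT, so 1 K313 array lay far above the rest. Many probe sets of the array lie near background, where folds are compressed. Among the 11573 probe sets with a mean above 5 in at least 1 group, 13.9% were called, 28% had an unadjusted p under 0.05, 31% did not overlap between the groups and 80.5% had an interval within 2-fold. Of the 88 genes of oxidative phosphorylation above that level, 1 was called (1.14%), 10 had an unadjusted p under 0.05 (11.4%), 16 did not overlap (18.2%) and 86 (97.7%) had an interval within 2-fold.

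**Figure D2:**
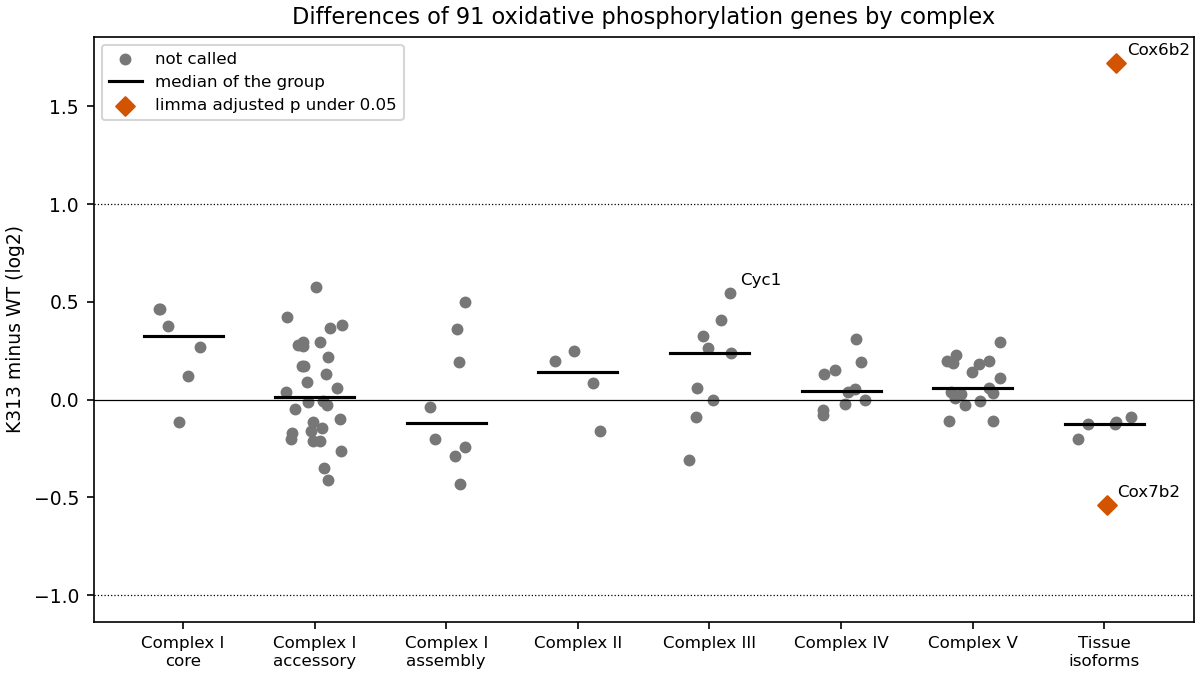
Differences of all 91 genes by complex. The vertical axis gives K313 minus WT (log2), each point 1 gene, black bars the median of each group of genes and dotted lines a 2-fold difference. The 2 called genes, Cox6b2 at 1.72 and Cox7b2 at -0.54, are both tissue isoforms, while the general subunits and assembly factors lie between -0.43 and 0.58.

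Complex I takes electrons from NADH, and its core subunits carry the flavin and the iron-sulfur clusters. Of the 6 nuclear core subunits measured, 0 were called with limma, 2 had an unadjusted p under 0.05, both higher, and 5 differences were above 0. These 2 are 33.3% of so few genes. The share was 17.8% over all probe sets and 28% over those with a mean above 5 in at least 1 group. The median difference of the 6 core subunits was 0.32. Ndufv1, the flavin-binding subunit that receives electrons from NADH, read 12.79, 13.14 and 13.04 in K313 against 12.60, 12.42 and 12.56 in WT. All K313 arrays lay above all WT arrays, by 0.46 ± 0.16 (SE, n = 3 per group; limma adjusted p = 0.131). Ndufs1, the largest iron-sulfur subunit, read 12.66, 12.64 and 12.46 in K313 against 11.80, 12.12 and 12.45 in WT. The groups did not overlap, but WT replicate 3 came just below the lowest K313 array, and the difference was 0.46 ± 0.19 (adjusted p = 0.214). Ndufs3, of the arm that reaches into the matrix, differed by 0.38 ± 0.23 and Ndufs7, which holds the cluster next to the quinone site, by 0.27 ± 0.20 (adjusted p = 0.451 and 0.563). The flavin and iron-sulfur subunits did not all lean one way: Ndufs8 stood at 0.12 and Ndufv2, the partner of Ndufv1, at -0.12. By array, the median of the 6 core subunits lay at -0.03, 0.44 and 0.41 in K313 replicates 1, 2 and 3 relative to the WT means, against 0.04, -0.01 and -0.02 in the WT replicates. On K313 replicate 1 the 6 subunits were split, with Ndufv1 and Ndufs1 above every WT array and Ndufv2 and Ndufs8 below every WT array. Without that array the median was 0.43, with Ndufv1 and Ndufs3 each at 0.56 and Ndufs7 at 0.44 (limma adjusted p between 0.104 and 0.3004). Over all alternatives the median of the core subunits stayed above 0, between 0.23 and 0.43.

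The 30 accessory subunits of complex I surround the core and are needed for its assembly and stability. None was called, 15 were above 0 and 15 below, and the median difference was 0.015. This median ran from -0.05 without WT replicate 3 to 0.10 without K313 replicate 1, and was -0.02 without K313 replicate 2 and -0.03 without K313 replicate 3. Ndufa6, a LYR motif protein that binds the acyl carrier protein Ndufab1, had the smallest p-value of them. It read 11.11, 11.11 and 11.10 in K313 against 11.44, 11.53 and 11.58 in WT, so all K313 arrays lay below all WT arrays, by -0.41 ± 0.15 (limma adjusted p = 0.143). Ndufa6 was called lower in 1 of the alternatives, with ordinary variance per probe set (adjusted p = 0.0391). Ndufb8, an accessory subunit of the membrane arm, read 8.14, 8.35 and 8.68 in K313 against 8.17, 7.81 and 7.92 in WT, and these ranges overlap (0.42 ± 0.18, adjusted p = 0.255). Ndufb2 and Ndufb7, also of the membrane arm, differed by 0.38 ± 0.18 and 0.37 ± 0.17 (adjusted p = 0.294 and 0.301). Ndufs4, an accessory subunit of the NADH-oxidising part of the complex, pointed the other way at -0.35 ± 0.18 (0.367), with all K313 arrays below all WT arrays. Its highest K313 array (11.17) and lowest WT array (11.19) nearly touched. Ndufb4 and Ndufb4b are near-identical copies, and their differences of 0.17 and 0.06 may share signal. The 3 X-linked genes of the set, Ndufa1 (-0.21), Ndufb11 (0.04) and the complex IV subunit Cox7b (-0.02), overlapped between the groups.

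Of the 8 Ndufaf assembly factors, 3 differences were above 0 and 5 below, and the median was -0.12. Leaving out 1 array moved it from -0.33 (without WT replicate 2) to -0.0033 (without WT replicate 1). Ndufaf2, which binds a late assembly intermediate of complex I, read 7.32, 7.24 and 7.03 in K313 against 7.59, 7.68 and 7.62 in WT. Every K313 array was below every WT array, by -0.43 ± 0.15 (limma adjusted p = 0.142). Ndufaf8 read 8.32, 8.77 and 9.01 in K313 against 8.31, 8.03 and 8.26 in WT, where the lowest K313 and highest WT arrays nearly touched, with a difference of 0.50 ± 0.20 (adjusted p = 0.196). Its partner Ndufaf5, which hydroxylates Ndufs7, pointed the other way at -0.24 ± 0.20. Ndufaf7, a methyltransferase for a core subunit, stood at 0.36 ± 0.16 (adjusted p = 0.278), and Ndufaf6 at -0.29 ± 0.16 (0.420). Without K313 replicate 1, Ndufaf8 stood at 0.69 (adjusted p = 0.0628).

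Complex II, succinate dehydrogenase, is the enzyme shared by the respiratory chain and the tricarboxylic acid cycle and is encoded wholly in the nucleus. Its flavin subunit Sdha read 12.07, 11.95 and 11.81 in K313 against 11.70, 11.42 and 11.97 in WT, with overlapping ranges (0.25 ± 0.18, limma adjusted p = 0.559). The iron-sulfur subunit Sdhb differed by 0.08 ± 0.16, the membrane anchor Sdhc by -0.16 ± 0.19 and the anchor Sdhd by 0.20 ± 0.17 (adjusted p = 0.867, 0.752 and 0.637). All 4 intervals lay within 2-fold, and the sign of Sdhb and of Sdhc turned when 1 array was left out. Without K313 replicate 1 Sdhb stood at 0.197 (limma adjusted p = 0.652).

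Complex III passes electrons from ubiquinol to cytochrome c. Its subunit Cyc1, cytochrome c1, which holds the haem that hands electrons to cytochrome c, had the smallest p-value among the general subunits. It read 10.09, 10.55 and 10.25 in K313 against 9.73, 9.80 and 9.73 in WT. All K313 arrays were higher than all WT arrays, by 0.54 ± 0.17, but the difference did not pass (limma adjusted p = 0.0809; 95% interval 0.18 to 0.91 before adjustment). Over all alternatives its adjusted p ranged from 0.0608 to 0.292, and it was 0.0715 without K313 replicate 1. Uqcrc1, a core protein of the matrix side, read 13.45, 13.84 and 13.98 in K313 against 13.48, 13.25 and 13.32 in WT, where K313 replicate 1 fell among the WT arrays (0.41 ± 0.18, adjusted p = 0.258). The Rieske iron-sulfur protein Uqcrfs1 and the small subunit Uqcr11 differed by 0.24 ± 0.16 and 0.26 ± 0.15, while the small subunit Uqcrb stood at -0.31 ± 0.16, with all K313 arrays below all WT arrays (adjusted p = 0.514, 0.420 and 0.351). Of the 9 subunits of this complex, 6 differences were above 0 and 3 below, and the median was 0.24 (0.16 to 0.26 over all alternatives).

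Complex IV, cytochrome c oxidase, reduces oxygen, and its nuclear subunits surround a catalytic core encoded by mitochondrial DNA. The 10 general subunits, with Ndufa4 counted here because its protein belongs to this complex, had the narrowest spread of differences. They ran from -0.08 to 0.31 with a median of 0.05, 0 were called with limma and 0 had an unadjusted p under 0.05. The median was 0.14 without K313 replicate 1, 0.0067 without WT replicate 3 and -0.04 without K313 replicate 3, and 0.10 without WT replicate 2. Cox7a2 differed by 0.31 ± 0.21, Ndufa4 by 0.19 ± 0.16, Cox5a by 0.15 ± 0.17 and Cox8a by 0.13 ± 0.17 (adjusted p between 0.511 and 0.781). Without K313 replicate 1, Cox5a stood at 0.28 and Cox8a at 0.25 (adjusted p = 0.508 and 0.542). In 9 of the 10 the interval lay within 1.5-fold.

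The 17 ATP synthase genes gave a similar picture, with differences of -0.11 to 0.29, a median of 0.06, 13 above 0 and 4 below, and 0 called with limma (0 at an unadjusted p under 0.05). The catalytic β subunit Atp5b read 16.69, 16.96 and 16.86 in K313 against 16.53, 16.51 and 16.59 in WT. These groups did not overlap, and the difference was 0.29 ± 0.15 (limma adjusted p = 0.362). The α subunit Atp5a1 differed by 0.19 ± 0.15, again without overlap (adjusted p = 0.606). Atp5g1, Atp5g2 and Atp5g3 encode the same mature c subunit of the membrane rotor with different import sequences. Atp5g2 differed by 0.20 ± 0.15 without overlap, but its lowest K313 array (16.06) nearly touched its highest WT array (16.04). Atp5g3 differed by 0.20 ± 0.16 with overlap, while Atp5g1 stood at 0.06. The median was 0.16 when K313 replicate 1 was left out and 0.02 when K313 replicate 2 was. It was 0.12, 0.10 and 0.035 when WT replicate 1, 2 or 3 was left out. In 15 of the 17 genes the interval lay within 1.5-fold. With each array shifted to a common median, the medians of complex IV, complex V and the accessory subunits of complex I fell below 0 (-0.03, -0.02 and -0.06), so the sign of these small medians depends on the scaling, and for complex IV and the accessory subunits also on single arrays.

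**Figure D3:**
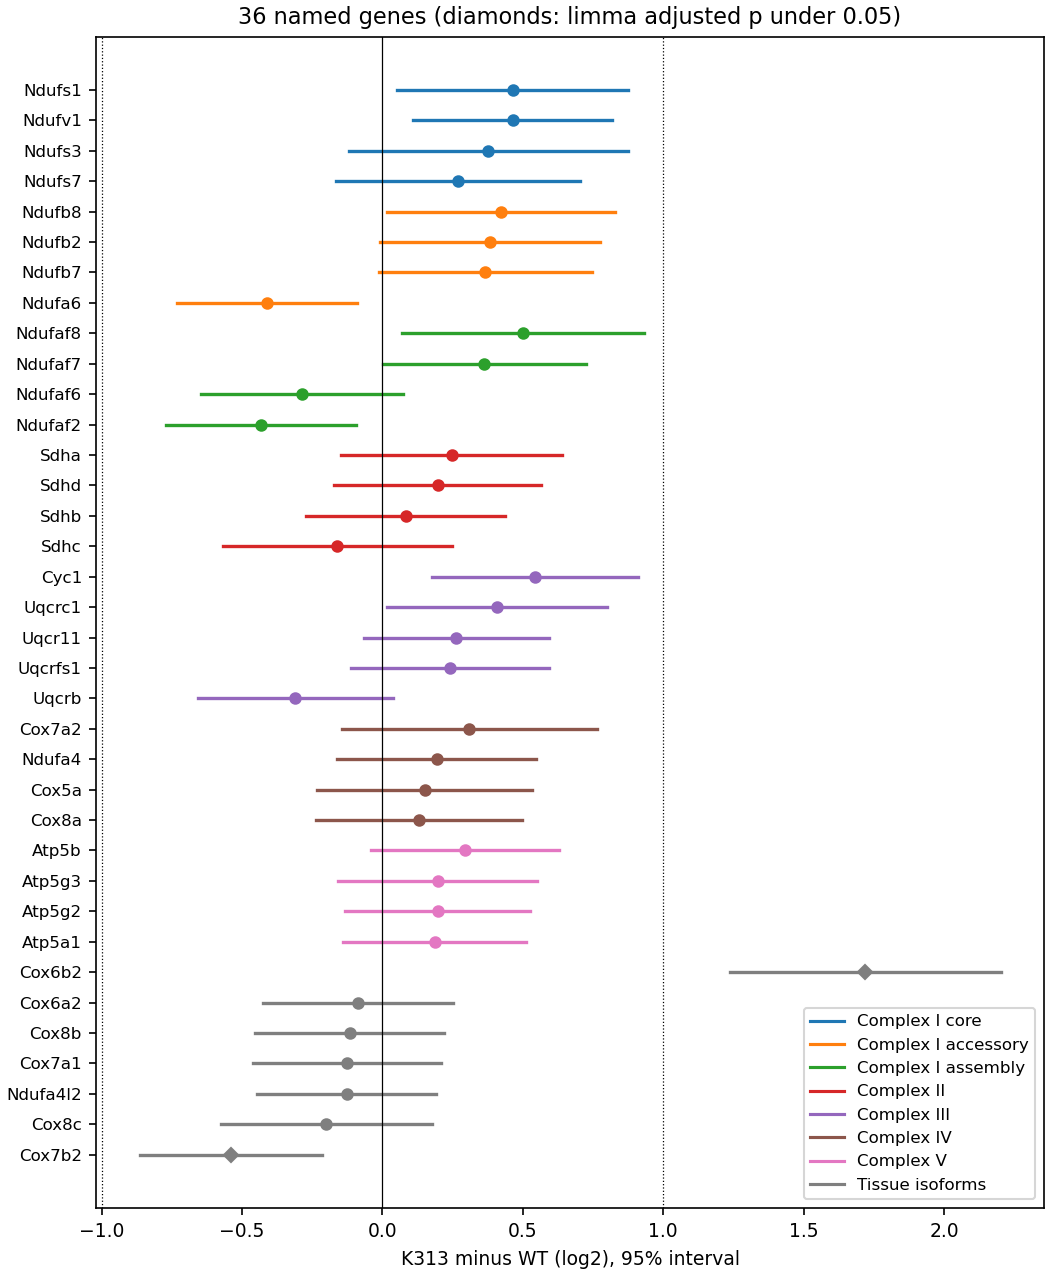
Differences of 36 named genes with their 95% intervals before adjustment. The horizontal axis gives K313 minus WT (log2), colours give the complex, diamonds mark the 2 called genes and dotted lines mark a 2-fold difference. Every interval shown except that of Cox6b2 lies within 2-fold.

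The 2 called genes are isoforms of small complex IV subunits known from testis. Cox6b2, the testis form of the subunit that caps complex IV at the site where cytochrome c docks, read 5.58, 4.69 and 4.99 in K313 against 3.44, 3.22 and 3.44 in WT. All K313 arrays lay well above the highest WT array. It averaged 5.09 ± 0.45 in K313 and 3.37 ± 0.13 in WT (SD, n = 3 each), a rise of 1.72 ± 0.22 (SE; limma adjusted p = 0.000393; 3.29-fold). The WT level is near background, where folds are compressed. The rise was called in every fit that left out 1 array (1.47 to 1.92) and was lost with ordinary variance per probe set (adjusted p = 0.0845). Its somatic partner Cox6b1 read 13.06, 13.75 and 13.54 in K313 against 13.52, 13.75 and 13.31 in WT, a difference of -0.08 ± 0.20 with an interval of -0.53 to 0.37. The 6 nearest measured protein-coding genes on chromosome 7, chosen after the values were seen, were not called with limma: Brsk1, Tmem150b, Kmt5c, Fam71e2, Il11 and Tmem190 differed by -0.30 to 0.32.

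Cox7b2, the testis form of subunit VIIb, read 4.16, 4.09 and 4.25 in K313 against 4.69, 4.77 and 4.66 in WT. The groups did not overlap, but both lie near background. The fall of -0.54 ± 0.15 passed narrowly (limma adjusted p = 0.0496) and was lost in each of the 6 fits that left out an array (adjusted p of 0.0894 to 0.177), with an intensity trend and robust prior (0.0744) and with the replicate number as a block (0.108). The other tissue isoforms overlapped between the groups except Ndufa4l2, a hypoxia-induced relative of Ndufa4 that lay near background in both (2.99 ± 0.05 in K313, 3.12 ± 0.03 in WT; -0.13 ± 0.14, adjusted p = 0.748). The muscle and heart forms Cox6a2, Cox7a1 and Cox8b differed by -0.09, -0.13 and -0.12 and the testis form Cox8c by -0.20. Without K313 replicate 1, Cox7a1 stood at -0.05 and Cox8b at -0.04.

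**Figure D4:**
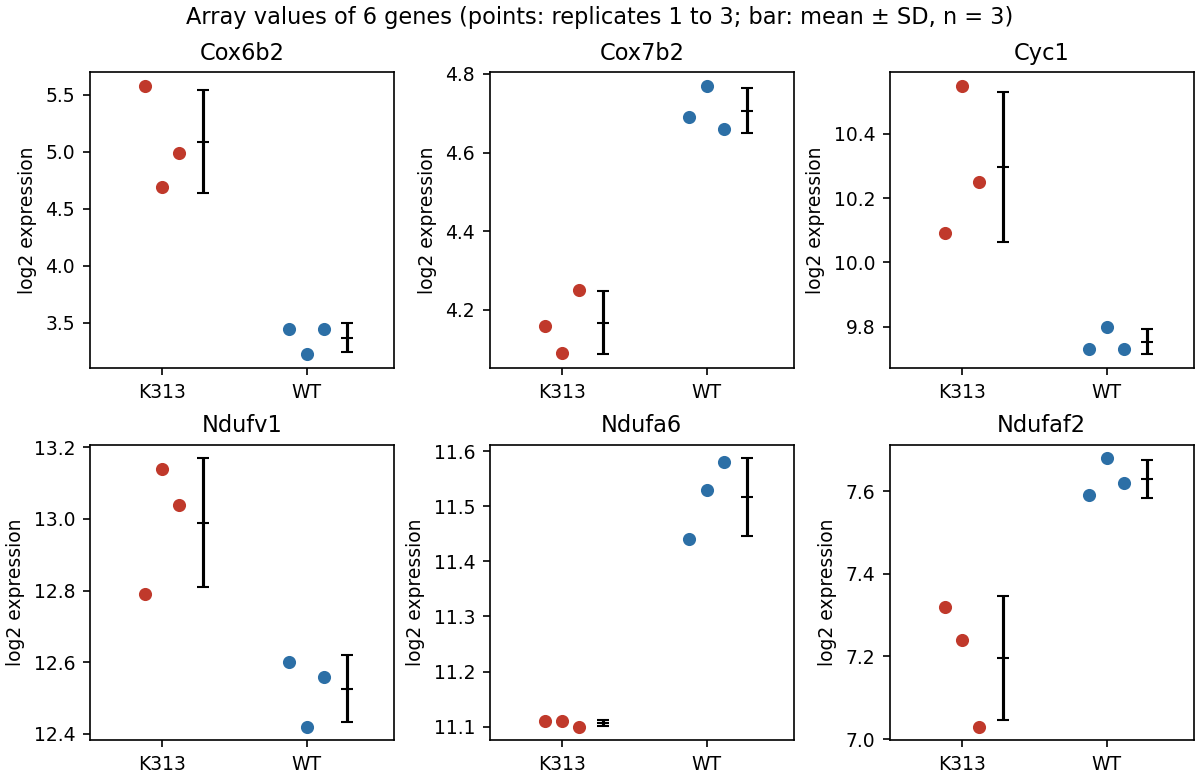
Log2 expression on each array for 6 genes, with K313 left of WT, points for replicates 1 to 3 and bars for the mean ± SD (n = 3); each panel has its own vertical range, which does not start at 0. These 6 have the smallest limma p-values of the 91 genes, a choice that favours groups without overlap. The groups do not overlap in any of the 6 (18 of all 91 genes), but Cox6b2 and Cox7b2 alone passed the adjusted threshold.

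Promoter sequences were compared as a feature that the choice of genes did not use. RefSeq promoters of build GRCm38.p6, from 250 bases before to 50 after each start, were found for 76 of the 91 genes. Respiratory chain promoters are known to carry sites for nuclear respiratory factor 1 (NRF1) and for ETS factors such as GABP. A core of the NRF1 site, GCGC followed by any 2 bases and GCGC again, which reads the same on both strands, occurred in 21 of the 76 (27.6%), against 10.2% of 15487 protein-coding genes measured on the array. The ETS letters CCGGAAG or CTTCCGG occurred in 19 (25.0%, against 13.3%). The C/EBP letters TTGCNNAA or TTNNGCAA occurred in 9 (11.8%, against 11.7%). The promoters of the set are also rich in CpG, with a median of 20 per promoter against 16, and the part of base composition in these shares was not tested. Both strands were searched. These matches are a description and not binding sites. Genes with the NRF1 letters had a median difference of 0.14 (12 above 0, 9 below) and those without 0.06 (33 above, 22 below). For the ETS letters the medians were 0.08 with a match (12 above, 7 below) and 0.06 without (33 above, 24 below). Genes with the C/EBP letters had a median of -0.04 (4 above, 5 below) and those without 0.08 (41 above, 26 below).

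The promoters of the 2 called genes, of the somatic partner Cox6b1 and of Ndufa6 are shown for comparison, because Cox6b2 was called and Cox6b1 was not, and because Ndufa6 holds the NRF1 letters. All 4 lie on the minus strand, and capitals mark any match to the NRF1, ETS or C/EBP letters. Cox6b2 (chr7:4753045-4753344) and Cox7b2 (chr5:71548156-71548455) have 0 such matches and 10 CpG each. Cox6b1 (chr7:30626065-30626364) has 1 ETS match and 17 CpG, and Ndufa6 (chr15:82354242-82354541) has 1 NRF1 match and 27 CpG.
Cox6b2: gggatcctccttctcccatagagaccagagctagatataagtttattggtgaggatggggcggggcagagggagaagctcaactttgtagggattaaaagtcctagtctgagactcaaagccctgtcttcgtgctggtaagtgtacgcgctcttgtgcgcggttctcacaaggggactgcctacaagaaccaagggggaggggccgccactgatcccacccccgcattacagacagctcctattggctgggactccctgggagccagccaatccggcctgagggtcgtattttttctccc
Cox7b2: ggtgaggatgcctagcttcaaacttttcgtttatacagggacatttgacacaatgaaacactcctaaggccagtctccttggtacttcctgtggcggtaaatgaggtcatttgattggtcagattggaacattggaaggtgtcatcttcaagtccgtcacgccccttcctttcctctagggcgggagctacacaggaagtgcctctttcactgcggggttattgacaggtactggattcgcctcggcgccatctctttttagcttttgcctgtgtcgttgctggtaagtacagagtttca
Cox6b1: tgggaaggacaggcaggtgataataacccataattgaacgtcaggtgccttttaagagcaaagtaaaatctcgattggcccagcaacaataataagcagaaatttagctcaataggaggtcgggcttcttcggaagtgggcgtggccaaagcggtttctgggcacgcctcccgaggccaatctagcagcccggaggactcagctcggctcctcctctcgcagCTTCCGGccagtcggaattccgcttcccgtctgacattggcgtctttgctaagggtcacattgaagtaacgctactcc
Ndufa6: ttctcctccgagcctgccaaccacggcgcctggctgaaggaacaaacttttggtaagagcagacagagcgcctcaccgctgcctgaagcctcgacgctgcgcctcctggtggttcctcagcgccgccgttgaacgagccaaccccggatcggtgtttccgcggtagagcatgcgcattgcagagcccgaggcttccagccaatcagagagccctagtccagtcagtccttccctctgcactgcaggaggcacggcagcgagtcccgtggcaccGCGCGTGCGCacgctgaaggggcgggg

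Related genes of the pathway also gave few calls. Across the 89 further genes measured on 4 lists, 0 were called higher and 2 lower with limma, 2.25% in all, against 7.75% of all probe sets, and the median difference was 0.0033. At an unadjusted p under 0.05, 5 were higher and 8 lower (14.6%, against 17.8% of all probe sets, 8.79% higher and 9.04% lower). Of 10 chain genes that the symbol rule misses, 0 were called (0 at an unadjusted p under 0.05). Cox4i1 differed by 0.23 ± 0.21, with overlapping ranges (limma adjusted p = 0.672). Cox4i2 (0.10 ± 0.15) and the cytochrome c gene Cyct (-0.09 ± 0.20) lay near background in both groups and also overlapped. Cytochrome c, Cycs, which carries electrons between complexes III and IV, differed by 0.21 ± 0.15 without overlap, and the supercomplex factor Cox7a2l by -0.25 ± 0.15, also without overlap (adjusted p = 0.542 and 0.459). For Cycs the lowest K313 array (15.35) and the highest WT array (15.33) nearly touched.

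Assembly factors outside the Ndufaf family gave 1 call among 38 genes. Atpaf1, a chaperone that binds the β subunit during ATP synthase assembly, read 9.73, 9.36 and 9.74 in K313 against 10.34, 10.37 and 10.21 in WT. All K313 arrays were lower, and the fall was -0.70 ± 0.16 (limma adjusted p = 0.0243). It was lost without WT replicate 1 (0.0702), WT replicate 2 (0.0701) or K313 replicate 2 (0.118), with the replicate number as a block (0.0525) and with ordinary variance (0.121). Uqcc1, a complex III assembly factor, read 9.85, 9.99 and 9.82 in K313 against 10.36, 10.44 and 10.47 in WT and missed the threshold (-0.54 ± 0.15, adjusted p = 0.0520). It passed with a common median (-0.61, 0.0279), with the dimmest probe sets removed (0.0471), with ordinary variance (0.0475) and among 1-symbol probe sets (0.0482). Coa5, a complex IV assembly factor, stood at 0.59 ± 0.20 (adjusted p = 0.115).

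Among 21 genes of mitochondrial transcription, DNA maintenance and biogenesis, 0 were called higher and 1 lower, and the median difference was -0.05. Mterf2, of the mitochondrial transcription termination factor family, read 7.28, 7.33 and 6.87 in K313 against 7.86, 7.99 and 7.67 in WT. The groups did not overlap, and the fall was -0.68 ± 0.18 (limma adjusted p = 0.0402), but it was lost in each of the 6 fits that left out an array (0.0538 to 0.156) and with quantile normalization (0.0518), array weights (0.0563), an intensity trend (0.0655) and ordinary variance (0.194). Its relative Mterf1a and the mitochondrial RNA polymerase Polrmt pointed the same way, at -0.46 ± 0.15 and -0.49 ± 0.16, and did not pass (0.107 and 0.109). In 7 of the 21 genes all K313 arrays lay below all WT arrays and in 0 all lay above. Over all probe sets these shares were 10.9% and 11%, and over the probe sets with a mean above 5 in at least 1 group, where 20 of the 21 genes lie, they were 16.5% and 14.5%. These 7 also include Polg2, Tefm, Tfam and Yy1, named after their values were seen. The biogenesis factors Nrf1 (0.08 ± 0.17), Gabpa (0.11 ± 0.17) and Ppargc1a (-0.05 ± 0.18), named for the promoter letters and the pathway, overlapped between the groups.

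Of 20 genes of the tricarboxylic acid cycle and pyruvate entry, 0 were called with limma (1 higher at an unadjusted p under 0.05), and 13 differences were above 0 and 7 below. Aco1, the cytosolic aconitase that doubles as an iron sensor, read 10.80, 10.91 and 10.50 in K313 against 9.96, 9.49 and 10.41 in WT. The groups did not overlap, with WT replicate 3 near the lowest K313 array, and the difference was 0.78 ± 0.23 (adjusted p = 0.0663). It was called without WT replicate 3 (1.01, adjusted p = 0.0188) and with quantile normalization (0.80, 0.0477). Dlat, the acetyltransferase of pyruvate dehydrogenase, stood at 0.36 ± 0.17 (adjusted p = 0.292).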

How the data were processed

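The deposited values are log2 expression values, 1 column per sample for 22206 probe sets. Per the submitters' processing notes, the authors used RMA and the Transcriptome Analysis Console; versions and the array design's build are not given in the sources used here. RMA corrects background, aligns the distributions of the arrays and combines probes into probe sets. It compresses folds of dim probe sets and hides any change in RNA content common to all genes. Many respiratory genes have processed pseudogenes, and whether a probe set also sees them was not tested. Genes were named from the platform annotation, and all 91 symbols matched the RefSeq gene table of GRCm38.p6, which also gave gene neighbours.

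All probe sets were fitted with limma 3.58.1 (R 4.3.3), with group as the only term and eBayes at its default prior, two-sided, 3 arrays per group, which limits the precision. The fit was also run on simulated data as a check of the code, and no result given here rests on that run. Of the 5 related lists, the mitochondrially encoded one was not analysed here. The genes named were all called genes, Cyc1, up to 4 further genes per complex with the smallest p, the tissue isoforms and, per related list, called genes and 2 others; any other gene is given for its role or after its values were seen. The genes and lists were chosen with earlier results of these data known. Alternatives were quantile normalization, a common median, removal of the dimmest 30% of probe sets, an intensity trend with robust prior, array weights, ordinary variance, 1-symbol probe sets, the replicate number as a block and leaving out each array. The numbers were not taken as pairs in the reported fit, because same-numbered samples did not deviate together, which does not exclude a pairing. The labels give no scan date or slide.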

Additional observations from a re-analysis of the deposited data

How the results depend on the processing

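With 3 arrays per group the median SE of the 91 genes was 0.17 on the log2 scale, and 3 genes near background in both groups carry little signal. The count of genes called higher was 0 with ordinary variance and 1 in every other alternative. The count called lower was 0 with an intensity trend and robust prior, 2 with ordinary variance and 0 in each fit without 1 array. The median difference ran from -0.0033 to 0.145 when arrays were left out. The number of genes with an interval within 2-fold, an alternative added after seeing the data, ran from 84 to 89 when arrays were left out and from 83 to 89 over the other settings. Related genes called higher numbered 1 with quantile normalization and 0 to 2 when arrays were left out. Related genes called lower numbered 2 in the reported fit, 3 with a common median, with the dimmest probe sets removed or among 1-symbol probe sets, 1 with quantile normalization, an intensity trend, array weights or ordinary variance and 0 to 1 when arrays were left out. All probe sets called numbered 1720 in the reported fit, 496 with ordinary variance and 1228 to 1465 when arrays were left out, where fewer arrays are fitted. When arrays were left out, the difference of Sdhb ran from -0.0033 (without K313 replicate 3) to 0.197 and that of Sdhc from -0.30 to 0.025 (without WT replicate 1). The causes were not tested.

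The replicate number as a block left 1 gene called higher, 0 lower, and 1 related gene lower, with 1546 probe sets called in all. Deviations of same-numbered arrays from their group means correlated at -0.06, 0.03 and -0.06 across probe sets. These correlations cannot show whether same-numbered samples were handled together, and the labels do not say.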
